A study of Mus musculus with 8 samples.

Results

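Matrix metalloproteases (MMPs), the ADAMTS proteases, the ADAMTS-like proteins and the tissue inhibitors of metalloproteases (TIMPs) were followed in the hypothalamus of young mice after a period of microglial depletion. These families were chosen with earlier results of these data known. Members were taken by gene symbol, as every gene named Mmp, Adamts, Adamtsl or Timp followed by its family number. This gave 51 of the 55401 genes in the deposited table. Of these, 37 had a mean level of at least 0.1 FPKM (fragments per kilobase of transcript, scaled to library size, a level per length) over the 8 libraries and were tested. The other 14 were not tested.

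The study used mice of a strain that the sources used here do not name, with no transgene or deletion named. One group of 4 pups received vehicle by gavage from postnatal day 9 to day 15, and the other group of 4 pups received PLX3397 over the same days. PLX3397 blocks CSF1R, the receptor that microglia need to survive, and acts on the whole animal. Direct effects of the drug on other cells and effects of microglial loss cannot be told apart here. Hypothalami of 2 females and 2 males per group were taken on day 19, and total RNA depleted of ribosomal RNA was sequenced. The libraries are named here by group, sex and number, from vehicle F1 to PLX3397 M2. Nothing in the labels says that the pups came from separate litters, so the p-values measure the spread between these 8 samples.

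MMPs and ADAMTS proteases cut proteins of the extracellular matrix and the cell surface with a zinc ion held in their catalytic domain. Most are made as inactive proenzymes, are opened by furin-like or plasmin-type proteases, and can be shut by TIMPs, which sit in the active site. The TIMPs differ in the proteases they block. In the brain the ADAMTS hyalectanases cut the lecticans aggrecan, brevican, neurocan and versican, the proteoglycans of the perineuronal net and of the looser matrix around it. The ADAMTS-like proteins resemble the non-catalytic part of ADAMTS proteases and lack the protease domain. The series title names perineuronal net plasticity, and the question put to these genes was whether the transcripts of the enzymes that remodel the matrix, or of their inhibitors, differed between the treatments.

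The family's shared active site is visible in the coding sequences. A pattern of 11 codons was searched in the longest coding transcript of each gene, read in frame on the coding strand from GENCODE vM21 (GRCm38, the mm10 build of the files). It holds a histidine codon and a glutamate codon in the first and second place and further histidine codons in the fifth and the last place. It was found in 42 of 51 members, namely in all 42 MMP and ADAMTS protease genes and in none of the 5 ADAMTS-like and 4 TIMP genes. Over all 21587 genes with a coding transcript that could be read, 96 or 0.445% held it. The sites below show the hyalectanase that fell after PLX3397 (Adamts4), 3 other hyalectanases, and 2 membrane-anchored MMPs for contrast. Capitals mark the 3 histidine codons, and the sequences run 5′ to 3′.

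Adamts4: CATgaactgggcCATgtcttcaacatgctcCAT

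Adamts15: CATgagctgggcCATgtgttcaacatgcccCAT

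Adamts1: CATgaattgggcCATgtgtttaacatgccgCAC

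Adamts5: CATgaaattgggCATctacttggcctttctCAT

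Mmp14: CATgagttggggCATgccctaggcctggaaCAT

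Mmp17: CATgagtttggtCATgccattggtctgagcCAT

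The Adamts4 site spans an intron at chr1:171253210-171253915 on the plus strand. The Adamts15, Adamts1 and Adamts5 sites are also split by an intron, and the Mmp14 and Mmp17 sites are not. The other sites lie at chr9:30911255-30911690 (Adamts15, minus strand), chr16:85799191-85799545 (Adamts1, minus), chr16:85878015-85887826 (Adamts5, minus), chr14:54437627-54437659 (Mmp14, plus) and chr5:129596597-129596629 (Mmp17, plus). Of its 33 bases, the Adamts4 site shared 30 with Adamts15, 27 with Adamts1 and 19 with Adamts5. It shared 21 with Mmp14 and 20 with Mmp17. By bases of this site, Adamts15 and Adamts1 were thus closer to Adamts4 than Adamts5 was, although Adamts4 and Adamts5 are the classic aggrecanases.

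Total counts per library ran from 54115300 to 67487391. Low counts piled up at multiples of 4 (a count of 4 in 1038 to 1152 genes per library, a count of 5 in 228 to 269), so a count of 1 is not 1 fragment, and the limit that a count of 0 allows was taken as 3 fragments or 12 counts, 0.178 to 0.222 CPM (counts scaled to library size). It covers counting error only. All 8 neuronal and 7 astrocyte markers were measured, as a brain sample should hold, with summed neuronal levels of 902 to 993 FPKM. Summed levels of 12 microglial genes were 116.1 to 120.4 FPKM in vehicle and 10.03 to 19.97 FPKM in PLX3397 libraries. Of those 12 genes, 8 fell (5 to 10 when 1 library was left out) and none rose, and Fcrls, Trem2, C1qa and Siglech had a count of 0 in at least 1 PLX3397 library. Of 7 tested border macrophage genes 3 fell (1 with vehicle F1 and PLX3397 M2 left out), and 1 of 8 endothelial and 1 of 9 meningeal fibroblast genes rose. When 1 library was left out, 0 endothelial and 0 to 2 meningeal fibroblast genes rose. No gene of the pericyte, astrocyte, neuron, choroid plexus, pituitary or red blood cell lists was called. Vehicle F1 stood apart with 3695 FPKM of anterior pituitary genes, against 17.03 to 26.93 FPKM elsewhere. PLX3397 M2 had the lowest microglial sum, 10.03 FPKM. Red blood cell genes summed to 38.0 to 235.1 FPKM in vehicle and 32.3 to 71.1 FPKM in PLX3397 libraries.

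Of the 37 tested members, 2 fell after PLX3397 and none rose (edgeR quasi-likelihood F-test over 22423 genes with sex as a covariate, Benjamini-Hochberg adjusted p under 0.05). Both were ADAMTS family genes, the hyalectanase Adamts4 and the ADAMTS-like gene Adamtsl2. Over all tested genes the same test called 331 or 1.48%, of which 285 (1.27%) were lower and 46 (0.205%) higher. At an unadjusted p under 0.05 edgeR counted 5 members, Adamts4, Adamtsl2, Adamtsl1, Mmp14 and Mmp19, where 14.4% of all tested genes had such a p. DESeq2 called 2 members, the same genes, where it called 1202 or 5.69% of the 21118 genes to which it gave an adjusted p. The member counts at an unadjusted p and with DESeq2 are near their backgrounds. The edgeR count at an adjusted p is a larger share than 1.48%. It rests on 2 genes, and both lost their call in some of the fits below. The members were also chosen with earlier results of these data known. The FPKM values of the groups did not overlap for Adamts4 and Adamtsl2, which were lower, and for Mmp19, which was higher. Among all tested genes, 6.41% had lower and 3.51% higher values with no overlap.

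**Figure D1:**
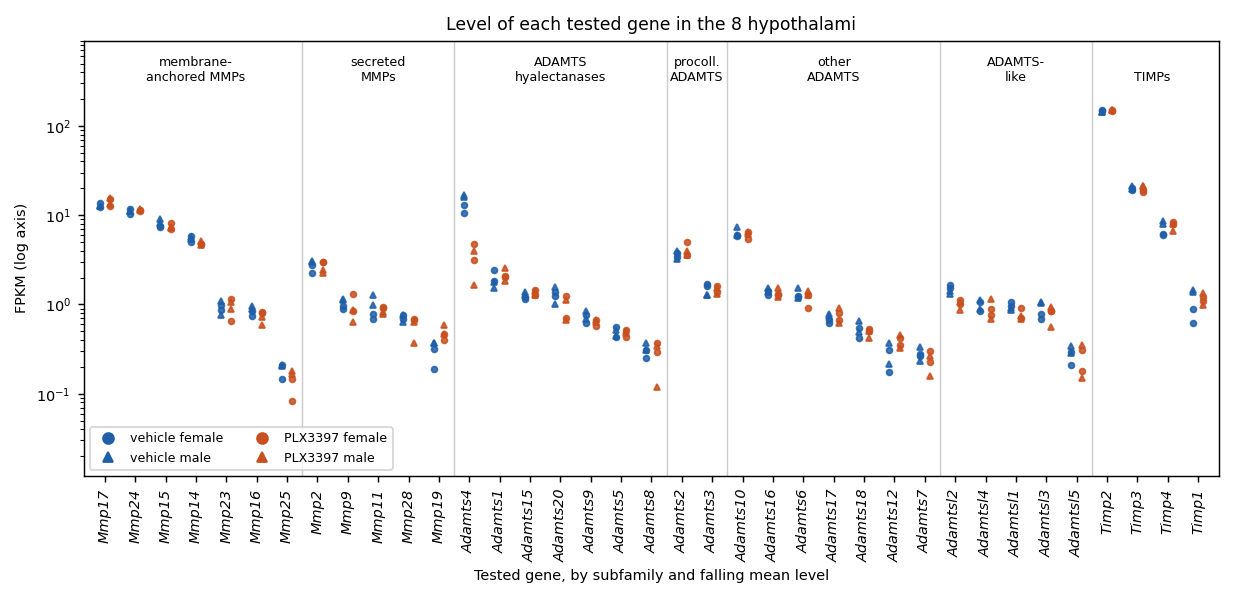
FPKM on a log axis for the 37 tested genes, grouped by subfamily and ordered by falling mean level. Each point is 1 library (circles females, triangles males). Timp2 lies near 150 FPKM in both groups, and Adamts4 is the gene whose PLX3397 points (1.67 to 4.78 FPKM) lie farthest below its vehicle points (10.7 to 16.6 FPKM).

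The levels of the 37 genes spanned from Timp2 at a mean of 148.1 FPKM to Mmp25 and Adamts7 at a fraction of 1 FPKM. A mean of at least 1 FPKM was reached by 19 members and of at least 5 FPKM by 9. Those 9 were Timp2, Timp3, Mmp17, Mmp24, Adamts4, Mmp15, Timp4, Adamts10 and Mmp14. Timp2 alone made up 54.3% to 59.8% of the summed FPKM of all members in every library. The vehicle hypothalamus of this age thus held more inhibitor than protease transcript by FPKM. The TIMPs summed to 172.2 to 176.8 FPKM and the MMP and ADAMTS proteases to 75.3 to 85.9 FPKM. As TIMPs differ in the proteases they block, these sums do not give the balance for any given protease.

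**Figure D2:**
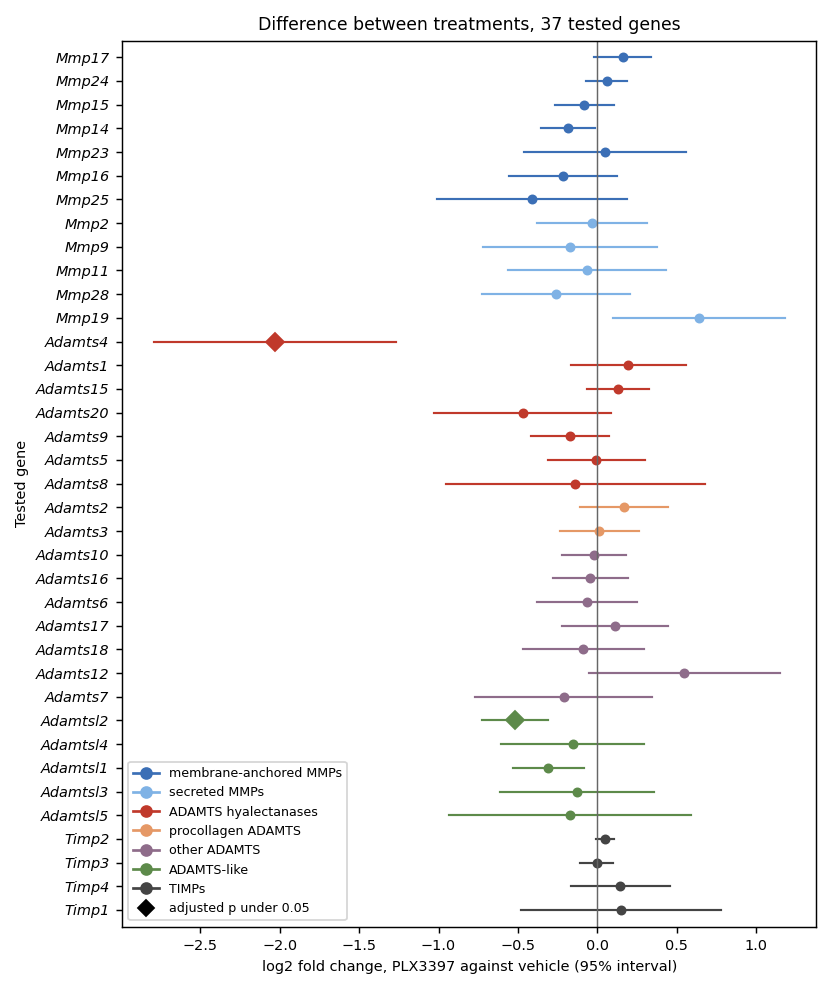
Log2 fold change of PLX3397 against vehicle for the 37 tested genes, with 95% intervals from the edgeR fit and colours for subfamilies. Diamonds mark the 2 genes that passed the test, Adamts4 at −2.03 and Adamtsl2 at −0.52.

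Adamts4 encodes aggrecanase-1, a secreted hyalectanase known for cutting aggrecan, brevican and versican, and its transcript is known from oligodendrocytes in the adult brain. In the order F1, F2, M1, M2, which all values per library follow below, its level was 10.7, 12.9, 15.9 and 16.6 FPKM in vehicle libraries. It was 4.78, 3.19, 3.97 and 1.67 FPKM in PLX3397 libraries. The groups did not overlap. The gap between them was wider than the range of the PLX3397 libraries and about as wide as that of the vehicle libraries. The means were 14.0 ± 2.74 and 3.40 ± 1.33 FPKM (SD, n = 4 each). The fitted level was 4.09-fold lower, a log2 fold change of −2.03 ± 0.33 (SE, 95% interval −2.80 to −1.27, edgeR adjusted p = 0.0325). By size of the fall, it ranked 66 among the 285 genes that fell. Since whole tissue was sequenced, fewer cells that make a transcript and less transcript per cell cannot be told apart, here and in what follows.

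The fall of Adamts4 was present in both sexes. The log2 fold change was −1.54 ± 0.39 in females and −2.53 ± 0.41 in males, with edgeR adjusted p-values of 0.323 and 0.0563. The difference between the sexes was −0.99 ± 0.55, males minus females (edgeR adjusted p = 0.867). The call held without PLX3397 F1 (adjusted p = 0.0314), without PLX3397 M2 (0.0173, log2 fold change −1.73), and when vehicle F1 and PLX3397 M2 were both left out (0.0405, −1.86). It was lost without PLX3397 F2 (0.117), PLX3397 M1 (0.104), vehicle F1 (0.0519), vehicle F2 (0.0911), vehicle M1 (0.0979) or vehicle M2 (0.108). The fold change stayed between −2.26 and −1.73 in those 8 fits. The gene lies on chromosome 1 from 171250421 to 171260637 (mm10, plus strand).

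Genes listed for oligodendrocytes, the myelin-forming cells, also had negative log2 fold changes. Of 9 genes listed for oligodendrocyte precursors and newly forming oligodendrocytes, 7 fell, with a median log2 fold change of −1.31. The precursor genes Pdgfra and Cspg4 did not pass, at −0.20 and −0.27 (edgeR adjusted p = 0.228 and 0.25). The largest falls on this list were those of Neu4, Bcas1, Gpr17 and Enpp6, from −5.13 to −2.49. With vehicle F1 and PLX3397 M2 left out 2 fell, and 3 to 7 fell when 1 library was left out. Of 10 genes listed for myelinating oligodendrocytes, 3 fell, with a median of −1.16. Without those libraries 1 fell, and 0 to 6 fell when 1 library was left out. Summed levels of the precursor list were 202.9 to 296.2 FPKM in vehicle and 68.5 to 98.3 FPKM in PLX3397 libraries. Those of the myelinating list were 1004 to 1490 FPKM and 328.9 to 750 FPKM. No gene of either list had a count of 0 in any library.

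Library by library, the order of Adamts4 levels was that of the myelinating list in both groups. In vehicle both were lowest in F1 and higher in F2, M1 and M2 in turn, the list with 1004, 1025, 1327 and 1490 FPKM. In PLX3397 both were highest in F1, then M1, F2 and M2, the list with 750, 571.6, 463.6 and 328.9 FPKM. The choroid plexus and ependyma list had the same orders. Its sums were 16.4 to 25.3 FPKM in vehicle and 9.14 to 22.4 FPKM in PLX3397 libraries. The vehicle order was also that of the endothelial, pericyte, meningeal fibroblast, astrocyte and red blood cell lists. The precursor list differed in both groups, with F2 lowest in vehicle and F2 above M1 in PLX3397 libraries. All these orders rest on 4 libraries each, are not particular to the myelinating list and are given as a description. As a share of the myelinating list's summed FPKM, Adamts4 was 1.07%, 1.26%, 1.2% and 1.12% in the vehicle libraries. The share was 0.637%, 0.687%, 0.694% and 0.506% in the PLX3397 libraries, so Adamts4 was lower also relative to that list. Relative to the precursor list, vehicle libraries had shares of 5.03% to 6.34% and PLX3397 libraries 2.43% to 4.86%. Of the 19 genes on both lists, 4 fell by more than Adamts4 did, namely Neu4, Bcas1, Gpr17 and Enpp6. What part the oligodendrocyte or microglial transcripts have in the Adamts4 result was not tested.

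**Figure D3:**
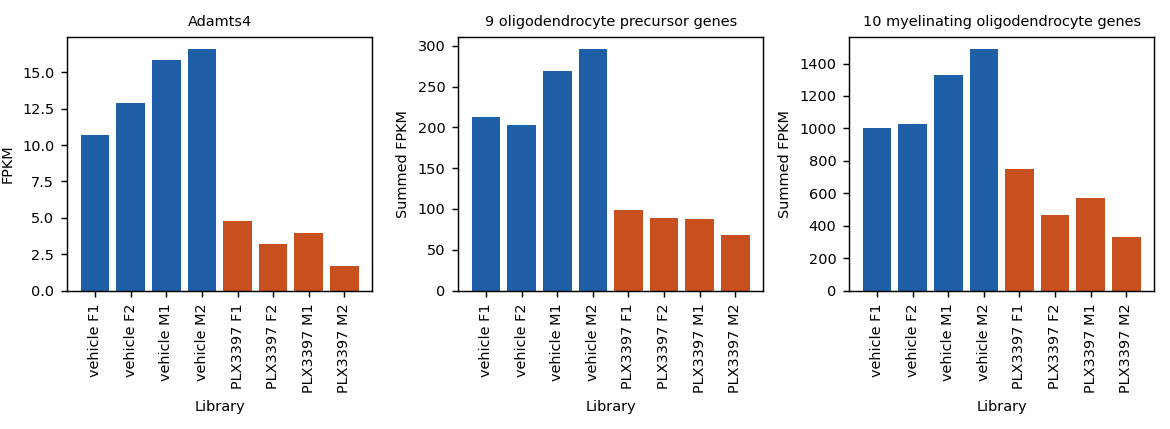
FPKM of Adamts4 (left) and the summed FPKM of the 9 precursor genes (middle) and 10 myelinating oligodendrocyte genes (right) in each library, with bars from 0. All 3 measures are lower in every PLX3397 library than in any vehicle library. Adamts4 follows the order of the right panel within each group, and also that of the choroid plexus and ependyma list, which is not drawn.

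The other 6 hyalectanases did not pass the test, so the subfamily counted 1 fall and 0 rises among 7, with a median log2 fold change of −0.14. Adamts1, a versican-cutting protease, was measured at 2.40, 1.85, 1.80 and 1.51 FPKM in vehicle and at 2.10, 2.01, 1.85 and 2.55 FPKM in PLX3397 libraries. Adamts15, whose active site was closest to that of Adamts4, was at 1.197, 1.15, 1.26 and 1.38 FPKM in vehicle and 1.46, 1.27, 1.29 and 1.40 FPKM in PLX3397 libraries. The groups overlapped for both genes, with log2 fold changes of 0.19 ± 0.15 and 0.13 ± 0.08 (edgeR adjusted p = 0.643 and 0.544). The 95% interval of Adamts15 ran from −0.06 to 0.33.

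Adamts5, the aggrecanase-2 gene, was at 0.433, 0.564, 0.520 and 0.438 FPKM in vehicle and 0.521, 0.433, 0.474 and 0.4997 FPKM in PLX3397 libraries. Its log2 fold change was −0.01 ± 0.13 (95% interval −0.31 to 0.30, edgeR adjusted p = 0.989). The aggrecanase genes Adamts4 and Adamts5 therefore gave values far apart under the same treatment, although the difference between their changes was not tested. Adamts20, a versican-cutting protease known from coat pigmentation, was at 1.39, 1.26, 1.56 and 1.02 FPKM in vehicle and 1.26, 0.708, 1.12 and 0.663 FPKM in PLX3397 libraries. Its change was −0.47 ± 0.24 (edgeR adjusted p = 0.435), with overlapping groups.

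Adamts9, another versican protease, was at 0.757, 0.614, 0.844 and 0.692 FPKM in vehicle and 0.667, 0.574, 0.639 and 0.668 FPKM in PLX3397 libraries. Adamts8 was at 0.306, 0.251, 0.311 and 0.368 FPKM in vehicle and 0.294, 0.371, 0.339 and 0.120 FPKM in PLX3397 libraries, where M2 was the low one. Their log2 fold changes were −0.17 ± 0.11 and −0.14 ± 0.35, and both groups overlapped (edgeR adjusted p = 0.526 and 0.905). The summed hyalectanase level was 19.99 ± 2.51 FPKM in vehicle and 9.22 ± 1.51 FPKM in PLX3397 libraries (SD, n = 4 each). Adamts4 was 62.3% to 75.4% of that sum in vehicle and 22.0% to 43.2% in PLX3397 libraries. In vehicle it was the leading hyalectanase by FPKM in every library. In PLX3397 M2 Adamts1, at 2.55 FPKM, was above Adamts4, at 1.67 FPKM.

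Adamtsl2, the second gene that fell, encodes a secreted glycoprotein without protease activity that binds fibrillin and latent TGF-β binding protein. It was at 1.64, 1.53, 1.31 and 1.41 FPKM in vehicle and at 1.12, 1.01, 1.06 and 0.856 FPKM in PLX3397 libraries. Every PLX3397 library was below every vehicle library, with means of 1.01 ± 0.115 and 1.47 ± 0.144 FPKM (SD, n = 4 each). The log2 fold change was −0.52 ± 0.09 (95% interval −0.73 to −0.31, edgeR adjusted p = 0.0405). Females gave −0.54 ± 0.13 and males −0.50 ± 0.13. The gene lies on chromosome 2 from 27079379 to 27108981, plus strand. The call was lost in each of the 8 fits that left out 1 library, with adjusted p-values from 0.0628 to 0.142 and fold changes from −0.58 to −0.47. Without an expression filter the adjusted p was 0.0556, and with vehicle F1 and PLX3397 M2 left out it was 0.255.

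**Figure D4:**
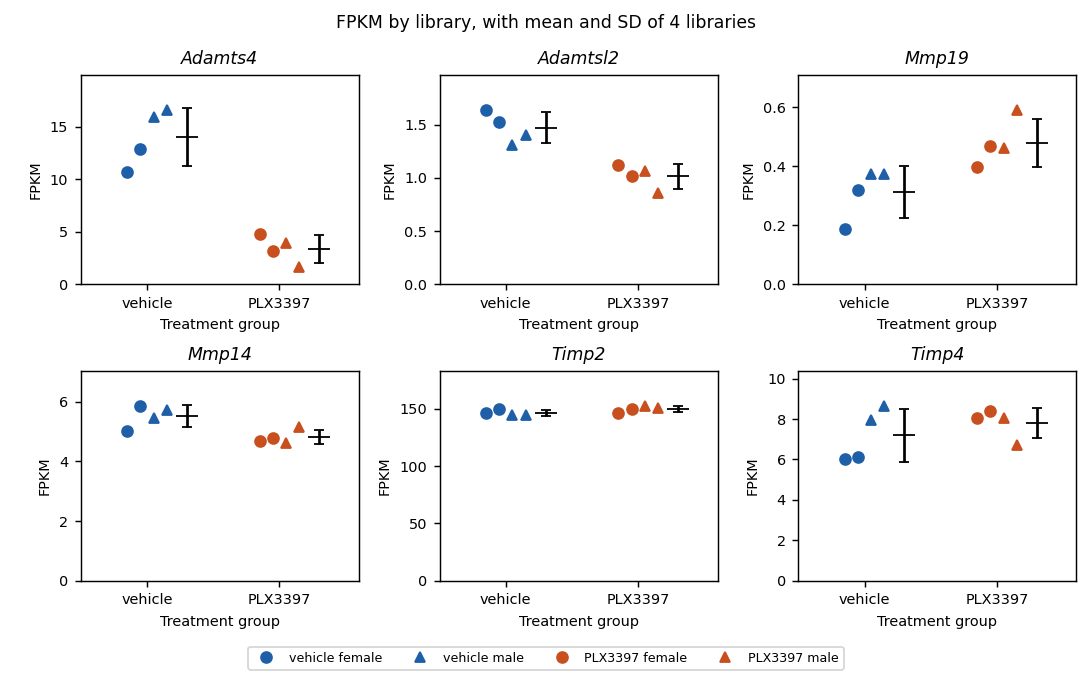
FPKM in each library for 6 members, with circles for females, triangles for males, and the mean and SD of 4 libraries beside each group. Adamts4 and Adamtsl2 passed the test, Mmp19 did not although its groups do not overlap, and Mmp14, Timp2 and Timp4 have groups that overlap.

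The other ADAMTS-like genes also had negative fold changes, without passing the test. Adamtsl1 had the smallest p among them, with a log2 fold change of −0.31 ± 0.10 (edgeR adjusted p = 0.2). Adamtsl3, Adamtsl4 and Adamtsl5 lay between −0.17 and −0.13, with edgeR adjusted p-values from 0.792 to 0.874. All 5 members were negative over the 8 libraries, with a median of −0.17, and 1 passed. Adamtsl3 and Adamtsl5 turned positive without PLX3397 M1 (0.08 and 0.05), and Adamtsl3 was at 0.23 ± 0.24 in females. Over all tested genes 51.0% were negative and the median was −0.00. Over all 37 members 24 or 64.9% were negative and the median was −0.06.

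Most MMPs grouped here as membrane-anchored stay on the cell surface through a transmembrane helix or a lipid anchor. All 7 genes of this subfamily were tested and none passed, with a median log2 fold change of −0.08. Their sum was 36.8 to 40.6 FPKM in vehicle and 38.7 to 41.0 FPKM in PLX3397 libraries. Mmp17, which carries a lipid anchor and is known to activate ADAMTS4, had the highest level. It was at 12.3, 13.6, 12.7 and 12.7 FPKM in vehicle and 12.6, 15.2, 13.5 and 15.4 FPKM in PLX3397 libraries. It had a log2 fold change of 0.16 ± 0.08 (edgeR adjusted p = 0.401), and PLX3397 F1 and M1 lay inside the vehicle range.

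Mmp14, the activator of proMMP2, had the smallest p of the subfamily. It was at 5.004, 5.86, 5.47 and 5.71 FPKM in vehicle and 4.70, 4.77, 4.61 and 5.14 FPKM in PLX3397 libraries, so the groups overlapped through vehicle F1 and PLX3397 M2. Its log2 fold change was −0.18 ± 0.07 (95% interval −0.35 to −0.02 before adjustment, edgeR adjusted p = 0.299). Mmp24, a membrane MMP known from neurons, gave 0.06 ± 0.05, and Mmp15 gave −0.08 ± 0.08. The less abundant Mmp16, Mmp23 and Mmp25 gave −0.21, 0.05 and −0.41, with edgeR adjusted p-values from 0.534 to 0.953 and intervals as wide as −1.01 to 0.19 for Mmp25.

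Of 16 secreted MMPs, only 5 reached the level for testing, and none of these passed the test. The gelatinases Mmp2 and Mmp9 cut denatured collagen and basement membrane, and Mmp9 is known for acting on perineuronal nets. Mmp2 was at 2.75, 2.24, 3.04 and 2.99 FPKM in vehicle and 2.97, 3.02, 2.23 and 2.46 FPKM in PLX3397 libraries. Mmp9 was at 0.894, 0.968, 1.11 and 1.15 FPKM in vehicle and 1.31, 0.837, 0.634 and 0.871 FPKM in PLX3397 libraries. In both genes the groups overlapped. The log2 fold changes were −0.04 ± 0.15 for Mmp2 (95% interval −0.38 to 0.31) and −0.17 ± 0.24 for Mmp9 (−0.72 to 0.38), with edgeR adjusted p-values of 0.95 and 0.809.

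Mmp19, an MMP that cuts basement membrane proteins, was the secreted MMP with the smallest p. It was at 0.188, 0.321, 0.374 and 0.375 FPKM in vehicle and 0.397, 0.469, 0.462 and 0.593 FPKM in PLX3397 libraries, so the groups did not overlap but nearly met. The log2 fold change was 0.64 ± 0.23 (95% interval 0.10 to 1.18), with an unadjusted p of 0.0257 and an edgeR adjusted p of 0.266. Mmp19 shares 789 of its 3533 exonic bases with Tmem198b on the other strand, which was at 4.01 FPKM and had a log2 fold change of −0.05 ± 0.10. In all, 10 tested members share exonic bases with another gene, and the sources used here do not say if the libraries are stranded. Mmp11 and Mmp28 gave −0.06 ± 0.21 and −0.26 ± 0.20.

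The 11 untested secreted MMPs included the collagenase Mmp13, the stromelysins Mmp3 and Mmp10, matrilysin (Mmp7) and the macrophage elastase Mmp12. Mmp7, Mmp10, Mmp20, Mmp27, Mmp1a and Mmp1b had a count of 0 in all 8 libraries. The highest value of any untested MMP in any library was 0.256 FPKM, for Mmp3 in PLX3397 F2, a gene with a count of 0 in 3 libraries. Among the untested ADAMTS genes, Adamts14 was at 0.0741 to 0.105 FPKM in vehicle and 0.0471 to 0.0634 FPKM in PLX3397 libraries, groups that did not overlap. Its counts were low, 26 to 38 in vehicle and 19 to 25 in PLX3397 libraries. Adamts14 was singled out after its values were seen, and the share of untested genes without overlap is not given. Adamts19 ranged from 0.0443 to 0.154 FPKM over the 8 libraries and Adamts13 stayed at or below 0.0425 FPKM.

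The procollagen proteases Adamts2 and Adamts3 trim the amino ends of fibrillar procollagens, and Adamts3 also cuts reelin. Adamts2 was at 3.81, 3.44, 3.22 and 4.00 FPKM in vehicle and 4.96, 3.63, 3.94 and 3.60 FPKM in PLX3397 libraries. Its log2 fold change was 0.17 ± 0.12 (edgeR adjusted p = 0.595), and that of Adamts3 was 0.01 ± 0.11 (95% interval −0.24 to 0.26). Of 9 other ADAMTS genes 7 were tested, none passed the test, and their median was −0.04. Adamts10, which acts on fibrillin microfibrils, led them with 5.99, 5.91, 6.01 and 7.45 FPKM in vehicle and 6.56, 5.48, 6.22 and 6.45 FPKM in PLX3397 libraries, a change of −0.02 ± 0.09. Adamts12 had the smallest p, at 0.311, 0.173, 0.217 and 0.374 FPKM in vehicle and 0.423, 0.354, 0.322 and 0.454 FPKM in PLX3397 libraries. Its change was 0.55 ± 0.26 (edgeR adjusted p = 0.393), and the groups overlapped through PLX3397 F2 and M1. Adamts6, Adamts7, Adamts16, Adamts17 and Adamts18 lay between −0.21 and 0.11.

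The 4 TIMPs were all tested, and none passed the test, with a median log2 fold change of 0.10. Timp2, which blocks most MMPs and also helps MMP14 to activate MMP2, was at 146.1, 149.7, 144.7 and 144.8 FPKM in vehicle and 146.3, 150.2, 152.6 and 150.5 FPKM in PLX3397 libraries. It varied little, with coefficients of variation of 1.61% and 1.75%, against 19.6% and 39.0% for Adamts4. The log2 fold change was 0.05 ± 0.03 (95% interval −0.01 to 0.11, edgeR adjusted p = 0.449).

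Timp3, the matrix-bound TIMP that also blocks ADAMTS4 and ADAMTS5, was at 19.2, 20.3, 19.7 and 21.1 FPKM in vehicle and 18.95, 18.3, 21.1 and 21.2 FPKM in PLX3397 libraries. Its log2 fold change was −0.00 ± 0.04 (95% interval −0.11 to 0.10, edgeR adjusted p = 0.984). Timp3 shares 1733 of its 8144 exonic bases with Syn3 on the other strand, which was at 1.36 FPKM.

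Timp4, a TIMP of brain and heart, was at 6.04, 6.14, 7.93 and 8.65 FPKM in vehicle and at 8.06, 8.395, 8.06 and 6.70 FPKM in PLX3397 libraries. Its vehicle females were the lowest of all 8 libraries. The log2 fold change was 0.15 ± 0.13 (edgeR adjusted p = 0.694). Timp1, the inducible TIMP of glia, was at 0.883, 0.625, 1.38 and 1.46 FPKM in vehicle and 1.09, 1.21, 1.34 and 0.985 FPKM in PLX3397 libraries. Its change was 0.15 ± 0.27 (edgeR adjusted p = 0.865). Timp1 lies inside Syn1, at 98.6 FPKM, with no shared exonic base, and Timp4 shares 90 of 5894 exonic bases with Syn2, at 60.6 FPKM. Syn1 and Syn2 had log2 fold changes of 0.05 ± 0.04 and 0.01 ± 0.03.

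No member passed the edgeR test of the difference between the sexes' treatment effects, where 1 of 22423 genes (0.00446%) was called. An unadjusted p under 0.05 was found for 4 members and for 5.68% of all tested genes. Those 4 were Timp4, Mmp2, Mmp11 and Mmp16. Timp4 gave 0.46 ± 0.10 in females and −0.17 ± 0.10 in males, a difference of −0.63 ± 0.14 (edgeR adjusted p = 0.566). DESeq2 called this difference, with an adjusted p of 0.0392, and no other member, where it called 142 genes (0.633%) in all. Mmp2 gave 0.29 ± 0.13 in females and −0.36 ± 0.13 in males (edgeR adjusted p of the difference = 0.752). Of the 37 members, 11 were higher in PLX3397 females and lower in PLX3397 males, and 4 were the other way round. No such count over all tested genes is given, so these counts are a description only. Between males and females over both treatments, edgeR called no member, where 10 genes (0.0446%) were called over all genes. Timp3 had an unadjusted p under 0.05 in that comparison, with a log2 difference of 0.11 ± 0.04, males minus females (edgeR adjusted p = 0.967), where 4.76% of all genes had such a p. DESeq2 called no member and 0.285% of all genes.

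The transcripts of proteins that open the proenzymes gave no called change. Of 10 listed activators none fell or rose, 9 had negative fold changes, and the median was −0.23. Plat, which makes plasmin from plasminogen, was at 10.1, 10.2, 10.8 and 13.3 FPKM in vehicle and 9.19, 7.87, 8.18 and 7.88 FPKM in PLX3397 libraries. The groups did not overlap, and the log2 fold change was −0.40 (edgeR adjusted p = 0.136). Plau, the other plasminogen activator, was at 0.644 to 0.818 FPKM in vehicle and at 0.184 to 0.296 FPKM in 3 PLX3397 libraries. It had a count of 0 in PLX3397 M2. Its log2 fold change was large but imprecise, −2.13 ± 0.78, and the groups did not overlap (edgeR adjusted p = 0.271). The proprotein convertases Furin and Pcsk7 gave −0.17 and −0.29.

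Of 11 other inhibitors and clearance receptors, 10 were tested, 1 rose and none fell, with a median of 0.09. The gene that rose was Serpini1, neuroserpin, an inhibitor of the plasminogen activator that Plat encodes. It was at 16.1, 15.7, 13.7 and 12.9 FPKM in vehicle and 19.5, 19.5, 18.3 and 18.3 FPKM in PLX3397 libraries. The groups did not overlap, and the log2 fold change was 0.39 ± 0.04 (edgeR adjusted p = 0.00656). It passed in each of the 8 fits without 1 library and had an adjusted p of 0.0607 with vehicle F1 and PLX3397 M2 both left out. Spock1, Spock2 and Spock3, the testicans, gave 0.10, 0.07 and 0.18 without passing (edgeR adjusted p from 0.263 to 0.399). None of 10 ADAM sheddases, the related surface proteases, passed the test, and their median was −0.08.

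Among 18 substrates of the brain matrix and basement membrane, 2 fell and 1 rose, with a median of −0.06. Versican (Vcan), a lectican cut by hyalectanases, was at 2.11, 2.02, 2.14 and 2.50 FPKM in vehicle and 0.776, 0.988, 0.795 and 1.06 FPKM in PLX3397 libraries. Versican fell with a log2 fold change of −1.26 ± 0.12 (edgeR adjusted p = 0.00584). Tenascin-R (Tnr), which links lecticans in the perineuronal net and is made by oligodendrocyte lineage cells and some neurons, was at 20.4, 22.1, 27.0 and 24.5 FPKM in vehicle and 13.1, 12.2, 11.9 and 11.8 FPKM in PLX3397 libraries. For Tnr the log2 fold change was −0.92 ± 0.09 (edgeR adjusted p = 0.00584). In both genes the PLX3397 libraries lay well below all vehicle libraries.

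Vcan and Tnr passed in each of the 8 fits without 1 library. With vehicle F1 and PLX3397 M2 both left out, Tnr passed (adjusted p = 0.0362) and Vcan did not (0.0524). Brevican (Bcan), the lectican with the highest level, was at 73.4, 85.6, 80.5 and 84.1 FPKM in vehicle and 66.6, 63.7, 57.2 and 54.3 FPKM in PLX3397 libraries, with a log2 fold change of −0.41 (edgeR adjusted p = 0.0566). Lama1, a laminin chain of basement membranes, was at 1.68, 1.47, 1.599 and 1.67 FPKM in vehicle and 2.54, 2.25, 3.22 and 3.39 FPKM in PLX3397 libraries. It rose with a log2 fold change of 0.82 ± 0.10 (edgeR adjusted p = 0.0111). This call was lost without vehicle M2 (0.0578) and with vehicle F1 and PLX3397 M2 both left out (0.0524). Summed levels of 9 meningeal fibroblast genes were 44.0 to 63.2 FPKM in vehicle and 61.7 to 91.5 FPKM in PLX3397 libraries, highest in PLX3397 M2. Their part in the Lama1 result was not tested.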

How the data were processed

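Per the file headers, the authors deposited 1 table of whole-number counts and FPKM values per gene and library. Per the submitters' processing notes, the build was mm10 and the tools included HISAT2, StringTie and bcl2fastq 2.0, with no roles stated. The sources used here do not give the counting tool, the annotation release or the strandedness. A count of 0 is listed at 0.0001 FPKM. Members, lists and tests were chosen with earlier results of these data known.

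Deposited counts were tested with edgeR 4.0.16 (R 4.3.3; quasi-likelihood F-test, TMM scaling, sex as a covariate, two-sided) on the 22423 genes that averaged 0.1 FPKM or more, adjusted by Benjamini-Hochberg with a threshold of 0.05. A model of 4 groups (treatment by sex) gave the effects within each sex and the difference between them. Standard errors were derived as the size of the log2 fold change over the root of the F statistic. Alternatives used RLE scaling, other filters, DESeq2 1.42.0, limma-trend 3.58.1 on log2(FPKM + 0.5) or log2(FPKM + 0.1), no sex covariate, a replicate block, the bias-adjusted deviance and fits without libraries. Counts divided by 4 were added after seeing the data.

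Values per library are given for called members, TIMPs, hyalectanases, Mmp2, Mmp9, Mmp14, the most abundant and smallest-p member of each subfamily, and up to 4 genes of a pathway list by p. Markers served to describe the tissue. GENCODE vM21 held all 51 member identifiers, 44 with the same coordinates. No promoter or protein sequence was used here. One gene that overlaps a member is not reported here.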

Additional observations from a re-analysis of the deposited data

Results flagged for a closer look

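In 4 of 74 groups of 4 libraries examined, the highest or lowest library stood far from the other libraries of its group by Dixon's test at the 95% level. Chance alone would give about 3.7 such groups. The PLX3397 M2 library was low for Mmp28, a secreted MMP also called epilysin, at 0.374 FPKM against 0.633 to 0.685 FPKM in the other PLX3397 libraries. Vehicle F2 was low for Mmp25, a membrane MMP known from leukocytes, at 0.146 FPKM against 0.203 to 0.212 FPKM. Vehicle M2 was high for 2 ADAMTS genes that act on fibrillin matrix, with 7.45 FPKM of Adamts10 against 5.91 to 6.01 FPKM, and 1.54 FPKM of Adamts6 against 1.17 to 1.23 FPKM. None of the 4 genes passed the test between treatments.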

How the results depend on the processing

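With 4 libraries a group, calls near the threshold moved with the samples used. Members called (2) became 1 with no FPKM filter, with limma-trend under either pseudocount, with no sex covariate and without vehicle F1 and PLX3397 M2, and 0 to 1 when 1 library was left out. Genes called over the whole table (331) became 1202 with DESeq2, 73 without vehicle F1 and PLX3397 M2, and 114 to 333 when 1 library was left out. Samples with the same replicate label deviated little together from their group means (correlations of deviations from 0.00215 to 0.0413). Taken over all tested genes, such correlations cannot show whether pups shared a litter or batch. With a replicate block, 0 members and 28 genes were called. DESeq2 called 1 member (Timp4) for the difference between sexes. Adamts4 passed in 12 and Adamtsl2 in 5 of 19 alternatives, and neither changed direction in any of them.

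Of 696 fold changes recomputed, 37 changed sign, in 15 genes whose change had not passed the test. Over the 8 fits without 1 library, log2 fold changes ran from −0.1154 to 0.1988 for Mmp23, −0.1571 to 0.0674 for Mmp2, −0.3977 to 0.0003 for Mmp9 and −0.1861 to 0.1017 for Mmp11. They ran from −0.0771 to 0.0854 for Adamts5, −0.3407 to 0.1632 for Adamts8, −0.0568 to 0.0865 for Adamts3 and −0.0885 to 0.0584 for Adamts10. The ranges were −0.1166 to 0.0337 for Adamts16, −0.1574 to 0.0374 for Adamts6, −0.2079 to 0.0435 for Adamts18, −0.2397 to 0.0798 for Adamtsl3 and −0.4083 to 0.0537 for Adamtsl5. For Timp3 and Timp1 they were −0.0357 to 0.0295 and −0.0322 to 0.328. Adamts8 gave 0.199 without vehicle F1 and PLX3397 M2, Adamts3 gave −0.0042 and −0.0038 with limma-trend at pseudocounts of 0.5 and 0.1, and Timp3 gave 0.0016 with no FPKM filter. The cause was not tested.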
